A study of Danio rerio with 8 samples.

Results

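Glycolysis is described here by 10 enzyme genes, hk1, pfkfb3, aldoaa, tpi1b, gapdh, pgk1, pgam1a, eno1a, pkma and ldha, in cells of the zebrafish kidney marrow that carry or lack the microRNA miR-142-3p. A gene was included where a probe set (the group of probes summarised to 1 value) of the array carried exactly 1 gene symbol, equal to 1 of these names. All 10 genes were found, each with 1 probe set, among 75212 probe sets and 13774 genes tested. The rule uses no measured level, but the 10 names were chosen with earlier results of these data known. The 4 groups, each of 2 samples labelled as biological replicates, were 142ab-/- myelomonocytes, wild-type myelomonocytes, 142ab-/- whole kidney marrow cells (WKMs) and wild-type WKMs. 142ab-/- is the label of the double knockout of miR-142-3p. All fish were 60 days old (60 dpf), each sample pooled 4 kidneys, and WKMs were sampled without erythrocytes. How the cells were gated and which alleles the mutants carry is not stated in the labels.

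Glycolysis splits glucose into pyruvate in the cytosol, and lactate dehydrogenase turns pyruvate into lactate, which restores the oxidised cofactor that the pathway consumes. Neutrophils hold few mitochondria and are known to draw most of their ATP from this route. miR-142-3p is a microRNA abundant in blood cells. MicroRNAs pair with messenger RNAs and lower their amount or translation.

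Values are log2 levels of 1-colour arrays, so a difference of 1 is a doubling. A level is read only against other levels of the same gene, because probe sets of different genes differ in response. A gene was tested where its mean over the 8 arrays reached 5.52, the median of all probe sets, which all 10 members passed, with no array below 8.22 for any of them. A gene was called where limma, fitted to all 8 arrays and all genes tested, gave an adjusted p under 0.05 (two-sided, Benjamini-Hochberg). Replicate arrays correlated at r = 0.988 to 0.992 across genes, which are not independent replicates. miR-142-3p itself was not analysed here, and the genotypes rest on the labels.

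The sorted populations differed in their markers as follows. The neutrophil list, whose 8 measured genes include the peroxidase gene mpx and the lysozyme gene lyz, averaged 12.63 in both 142ab-/- myelomonocyte arrays, 12.57 in both wild-type ones, 12.24 to 12.25 in 142ab-/- WKMs and 12.10 to 12.12 in wild-type WKMs. The lymphocyte list of 11 genes averaged 6.28 to 6.44, 6.30 to 6.39, 8.35 to 8.65 and 8.79 to 8.89 in the same order. The monocyte and macrophage list of 7 genes lay lower in myelomonocytes than in WKMs, at 8.90 to 9.23, 9.50 to 9.59, 9.69 to 9.92 and 10.00 to 10.04. The kidney tubule list of 8 genes lay higher in myelomonocytes, at 8.90 to 9.19, 8.40 to 8.75, 7.75 to 8.15 and 8.22 to 8.37. The erythroid list of 11 genes averaged 9.52 to 9.62, 10.46 to 10.60, 11.30 to 11.47 and 11.26 to 11.38. It was thus higher in the WKMs, though these were sampled without erythrocytes. In mixed cells, fewer cells of a type and less RNA per cell cannot be told apart.

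The plot of levels on each array shows all 10 genes together.

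**Figure D1:**
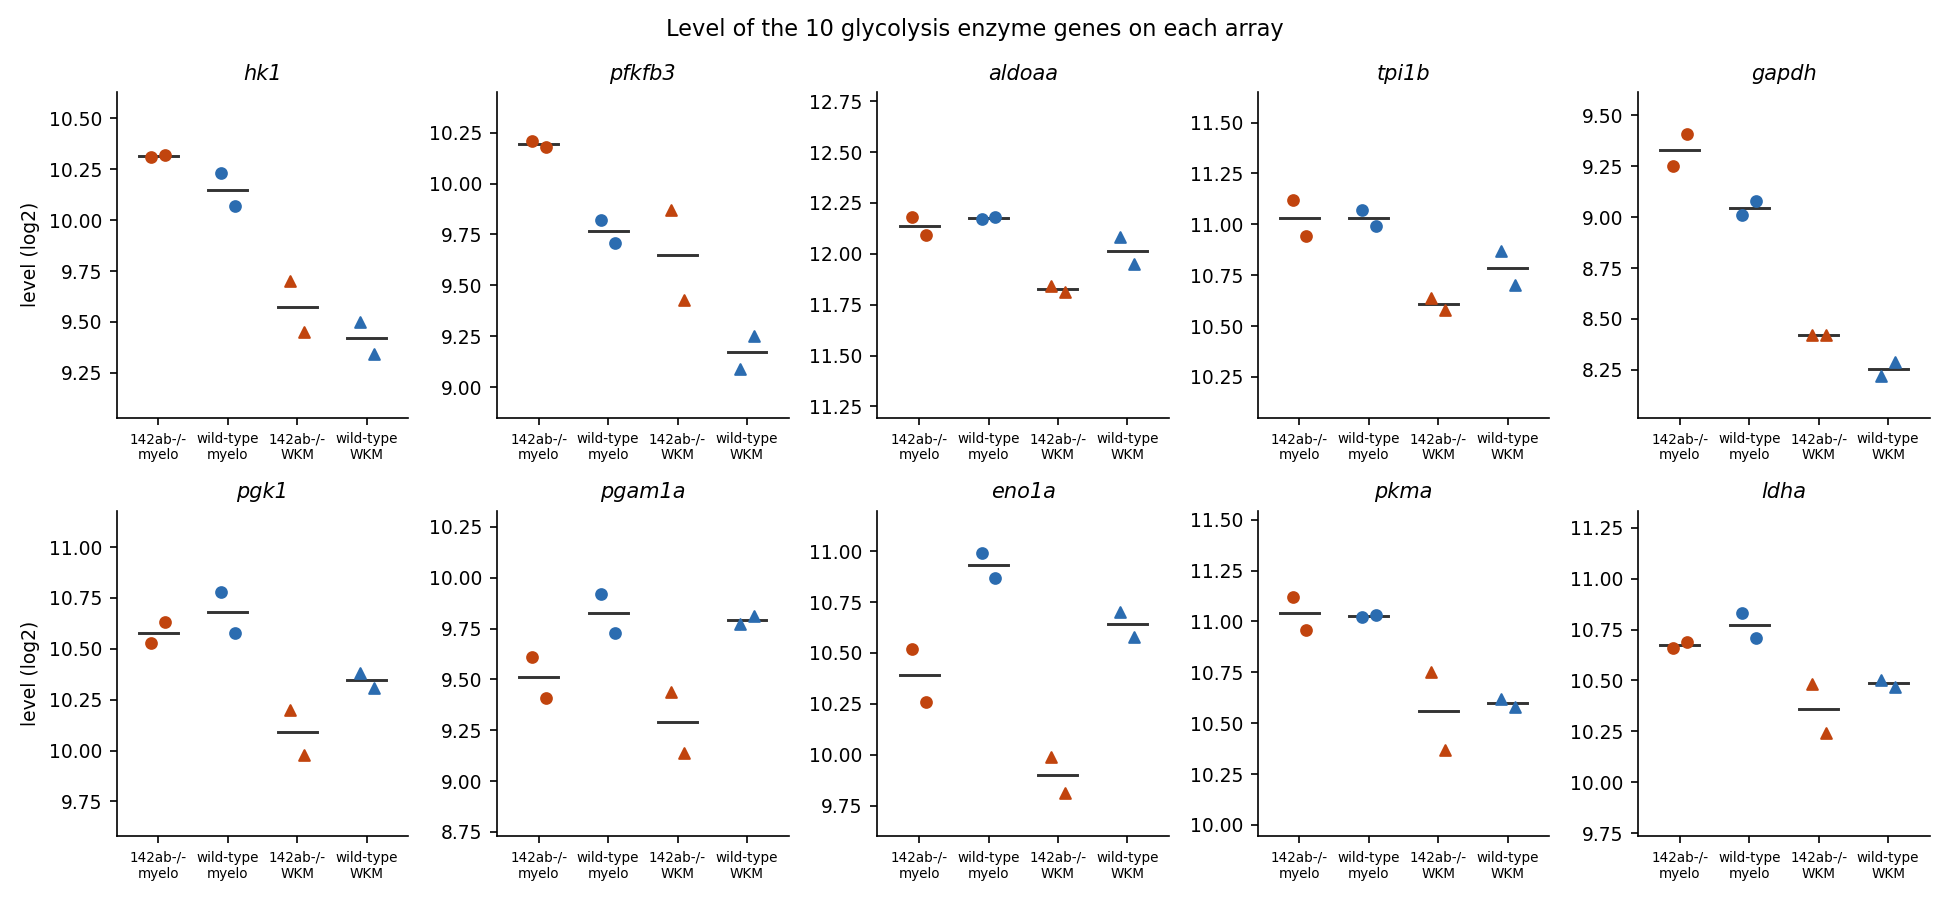
Level (log2, y axis) of each member on the 8 arrays, with circles for myelomonocytes ("myelo") and triangles for WKMs, orange for 142ab-/- and blue for wild type. The bar is the mean of 2 arrays and every panel spans the same 1.6 log2 units; eno1a lies lower in both 142ab-/- groups, and gapdh and hk1 lie higher in both myelomonocyte groups.

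The first comparison asked which glycolysis genes differ in cells that lack miR-142-3p. In both populations the gene that changed was eno1a, the enolase that forms phosphoenolpyruvate. It fell to 0.69 times its wild-type level in 142ab-/- myelomonocytes and to 0.60 times in 142ab-/- WKMs. The other 9 members were not called in either population. The smallest adjusted p among them belonged to gapdh (0.101) and pfkfb3 (0.103), both on the higher side, in myelomonocytes, and to pgam1a (0.0551), on the lower side, in WKMs. pfkfb3 makes the allosteric activator of phosphofructokinase, and pgam1a is the mutase just before enolase.

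eno1a had levels of 10.52 and 10.26 on the 142ab-/- myelomonocyte arrays, against 10.99 and 10.87 on the wild-type ones. In WKMs its levels were 9.99 and 9.81 in 142ab-/- samples, against 10.70 and 10.58 in wild-type samples. Every knockout array lay below every wild-type array of its population, and the knockout myelomonocytes also lay below the wild-type WKMs. The log2 change was -0.54 ± 0.12 (SE) in myelomonocytes (95% interval -0.82 to -0.25, adjusted p = 0.0281) and -0.74 ± 0.12 in WKMs (-1.02 to -0.45, adjusted p = 0.0116). Among the genes tested, 5.51% were called lower in 142ab-/- myelomonocytes and 4.55% in 142ab-/- WKMs, so 1 member of 10 is near the background in each. The shares called higher, which held none of the 10, were 6.85% and 4.73%. In myelomonocytes the call did not survive leaving out wild-type replicate 1 (adjusted p = 0.14), wild-type replicate 2 (0.0818) or 142ab-/- replicate 2 (0.105), nor a fit of those 4 arrays alone (0.0659). In WKMs it did not survive leaving out wild-type replicate 1 (0.0789), wild-type replicate 2 (0.05) or 142ab-/- replicate 2 (0.0813).

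pgam1a had levels of 9.61 and 9.41 in 142ab-/- myelomonocytes, against 9.92 and 9.73 in wild-type ones. Its levels in WKMs were 9.44 and 9.14 in 142ab-/- samples, against 9.77 and 9.81 in wild-type samples. Both differences separated the arrays without overlap and neither was called. The log2 change was -0.32 ± 0.13 in myelomonocytes (95% interval -0.62 to -0.01, adjusted p = 0.17) and -0.50 ± 0.13 in WKMs (-0.81 to -0.20, adjusted p = 0.0551). Arrays of the groups compared do not overlap for 54.8% of all genes tested in myelomonocytes and for 56.7% in WKMs, so separation alone is common here.

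In the preparatory steps, hk1, a hexokinase that traps glucose in the cell as its phosphate, averaged 10.32 ± 0.01 in 142ab-/- and 10.15 ± 0.11 in wild-type myelomonocytes, and 9.57 ± 0.18 in 142ab-/- and 9.42 ± 0.11 in wild-type WKMs (SD, n = 2 each). Its changes of 0.17 ± 0.12 in myelomonocytes and 0.16 ± 0.12 in WKMs were not called (adjusted p = 0.418 and 0.479). pfkfb3 had levels of 10.21 and 10.18 in 142ab-/- myelomonocytes, against 9.82 and 9.71 in wild-type ones. In WKMs its levels were 9.87 and 9.43 in 142ab-/- samples, against 9.09 and 9.25 in wild-type samples, so the knockout arrays lay higher in both populations but were far apart in WKMs. The changes were 0.42 ± 0.15 in myelomonocytes (95% interval 0.09 to 0.76, adjusted p = 0.103) and 0.48 ± 0.15 in WKMs (0.14 to 0.82, adjusted p = 0.086). Without 142ab-/- WKM replicate 2 the change in WKMs was 0.69 and was called (adjusted p = 0.0476).

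aldoaa, an aldolase that cleaves the doubly phosphorylated sugar, gave small differences, with 12.18 and 12.09 in 142ab-/- against 12.17 and 12.18 in wild-type myelomonocytes. In WKMs it had 11.84 and 11.81 in 142ab-/- samples, against 12.08 and 11.95 in wild-type ones. The differences were -0.03 ± 0.09 in myelomonocytes (95% interval -0.25 to 0.18) and -0.19 ± 0.09 in WKMs (-0.41 to 0.02), neither called. tpi1b, which interconverts the triose phosphates, gave 0.00 ± 0.11 in myelomonocytes (-0.25 to 0.25) and -0.18 ± 0.11 in WKMs (-0.43 to 0.07), also without a call.

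Of the enzymes of the ATP-yielding steps, gapdh, which oxidises glyceraldehyde phosphate, had 9.25 and 9.41 in 142ab-/- myelomonocytes, against 9.01 and 9.08 in wild-type ones. In WKMs both 142ab-/- arrays read 8.42, against 8.22 and 8.29 in wild-type arrays. The knockout arrays were the higher ones in both populations, with uncalled differences of 0.28 ± 0.10 in myelomonocytes (95% interval 0.06 to 0.51, adjusted p = 0.101) and 0.17 ± 0.10 in WKMs (-0.06 to 0.39, adjusted p = 0.337). pgk1, the kinase of the first ATP-yielding step, differed by -0.10 ± 0.12 in myelomonocytes (-0.37 to 0.17) and -0.25 ± 0.12 in WKMs (-0.52 to 0.02). pkma, a muscle-type pyruvate kinase, differed by 0.01 ± 0.13 in myelomonocytes (-0.30 to 0.32) and -0.04 ± 0.13 in WKMs (-0.35 to 0.27). ldha, the lactate dehydrogenase A chain, differed by -0.09 ± 0.11 in myelomonocytes (-0.34 to 0.16) and -0.12 ± 0.11 in WKMs (-0.38 to 0.13). Thus gapdh, pgk1, pkma and ldha were called in neither population, and their intervals exclude a doubling in either direction.

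Over the 10 members the median change was -0.02 in myelomonocytes and -0.15 in WKMs, against 0.01 over all genes tested in each. In WKMs 7 members lay below 0 and 3 (hk1, pfkfb3 and gapdh) above. The plot of genotype changes shows that hk1, pfkfb3, gapdh, pgk1, pgam1a, eno1a and ldha lay on the same side of 0 in both populations. aldoaa did so as deposited but lay at 0.04 in myelomonocytes after quantile normalization.

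**Figure D2:**
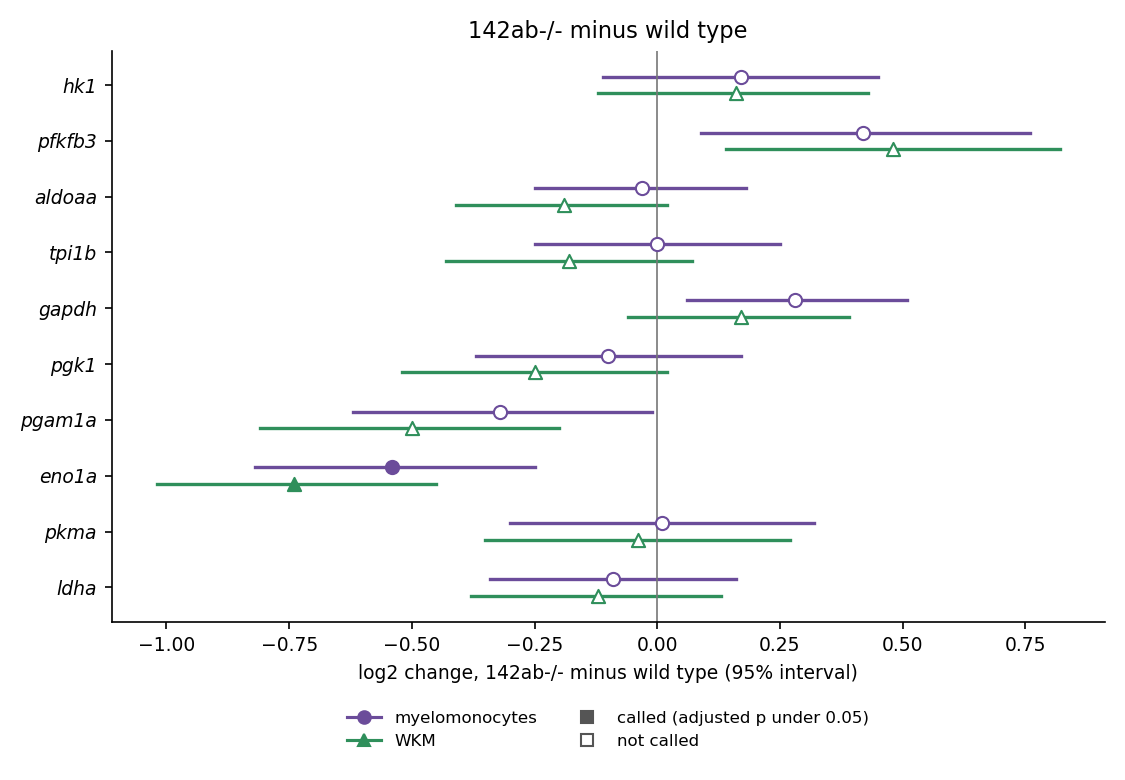
Log2 change (x axis, 142ab-/- minus wild type) of each member with its 95% interval from limma, circles for myelomonocytes and triangles for WKMs, filled where called. Only eno1a is filled, at -0.54 and -0.74.

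Whether a genotype difference depended on the population was tested as the difference between the differences, myelomonocytes minus WKMs. limma called 0 of the 10 members, with 0 at an unadjusted p under 0.05, against 0.276% of all genes called. The values ran from -0.05 ± 0.21 for pfkfb3 to 0.20 ± 0.17 for eno1a (adjusted p = 0.938 and 0.677). Their 95% intervals reached from -0.53 (pfkfb3) to 0.62 (pgam1a). Differences between populations within a gene's interval were therefore not excluded with 2 arrays a group.

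Markers of some other cell types moved with the genotype. The shares of all genes called between genotypes, given above, stand beside these counts. In myelomonocytes 9 of 11 erythroid genes were called lower in the knockout (median -0.73), 3 of 8 kidney tubule genes higher (median 0.38), and 0 of 8 neutrophil genes either way (median 0.06). In WKMs 1 of 11 erythroid genes was called lower (median 0.17), 1 of 8 kidney tubule genes lower (-0.08) and 0 of 8 neutrophil genes either way (0.06). The monocyte and macrophage list had 2 of 7 genes called lower in each population (medians -0.54 in myelomonocytes and -0.12 in WKMs). Of 10 tested lymphocyte genes 1 was called higher and 1 lower in 142ab-/- myelomonocytes, and 3 lower in 142ab-/- WKMs (medians -0.12 and -0.16). Of 5 stem and progenitor genes 2 were called higher in 142ab-/- myelomonocytes (median 0.32) and 0 in WKMs (0.15). Of 4 endothelial genes 1 was called lower in 142ab-/- myelomonocytes (median -0.45) and 0 in WKMs (-0.22), and of 3 thrombocyte genes 0 were called in either (-0.35 and -0.06).

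Muscle also makes much glycolytic enzyme. Of 10 skeletal muscle markers 6, among them the creatine kinase gene ckma and the parvalbumin gene pvalb2, were below 5.52 on average. Of the 4 tested, 1 was called lower in 142ab-/- myelomonocytes (median -0.29) and 0 in 142ab-/- WKMs (-0.26). The part of these cell types in the change of eno1a was not tested.

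The second comparison set myelomonocytes against the whole marrow. All 10 genes had the higher mean in myelomonocytes in both genotypes, with a median difference of 0.49 in 142ab-/- fish and 0.32 in wild-type fish, against 0.03 and 0.00 over all genes tested. limma called 9 of 10 higher in 142ab-/- myelomonocytes and 4 of 10 in wild-type ones. For all genes tested the shares called higher were 21.5% and 15.5%, and those called lower 22.6% and 20.1%. In wild type the balance of all calls depended on scaling, with 2134 higher and 2766 lower as deposited and 3036 and 2181 after quantile normalization. The members' direction did not turn under quantile normalization or median centring.

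gapdh showed the widest gap of the 10 members. Its mean level was 9.33 ± 0.12 in 142ab-/- myelomonocytes and 8.42 ± 0.00 in 142ab-/- WKMs, a 1.88-fold difference (log2 0.91 ± 0.10, adjusted p = 0.000296). In wild type it was 9.05 ± 0.05 in myelomonocytes and 8.25 ± 0.05 in WKMs, a 1.73-fold difference (0.79 ± 0.10, adjusted p = 0.000811). The paralogue gapdhs, looked up after its values were seen, had a smaller gap. It was 1.23-fold higher in 142ab-/- and 1.22-fold higher in wild-type myelomonocytes (limma adjusted p = 0.0287 and 0.0398). hk1 was 1.68-fold higher in 142ab-/- myelomonocytes (0.74 ± 0.12, adjusted p = 0.0018) and 1.66-fold higher in wild-type ones (0.73 ± 0.12, adjusted p = 0.00281). For gapdh and hk1, as for the other members except pgam1a, every myelomonocyte array exceeded every WKM array of the same genotype. The calls of gapdh and hk1 held under every alternative tried. Over all genes tested, the myelomonocyte arrays lay above the WKM arrays of the same genotype for 38.1% in 142ab-/- and 36.3% in wild-type fish.

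pfkfb3 was 1.46-fold higher in 142ab-/- myelomonocytes than in 142ab-/- WKMs (0.54 ± 0.15, adjusted p = 0.0177) and 1.51-fold higher in wild type (0.60 ± 0.15, adjusted p = 0.0156). The 142ab-/- call was lost without myelomonocyte replicate 1 or 2 (adjusted p = 0.0619 and 0.0533) or WKM replicate 2 (0.104), and the wild-type call without myelomonocyte replicate 1 (0.0769) or WKM replicate 1 (0.0912). pkma was 1.39-fold higher in 142ab-/- myelomonocytes (0.48 ± 0.13, adjusted p = 0.0217) and 1.35-fold higher in wild-type ones (0.43 ± 0.13, adjusted p = 0.0396). Its wild-type call needed all 4 arrays (largest adjusted p with 1 left out 0.138) and was lost without the filter on dim genes (0.0538) or with it at the 25th percentile (0.0502), and its 142ab-/- call was lost without myelomonocyte replicate 1 (0.0956), without WKM replicate 2 (0.133) and in a fit of those 4 arrays alone (0.0605).

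In 142ab-/- fish alone, pgk1 and eno1a were each 1.41-fold higher in myelomonocytes (adjusted p = 0.0103 and 0.0132), tpi1b 1.34-fold (0.0151), ldha 1.25-fold (0.045) and aldoaa 1.24-fold (0.0273). In wild type the same genes were 1.26-fold (pgk1, adjusted p = 0.0545), 1.23-fold (eno1a, 0.0985), 1.18-fold (tpi1b, 0.117), 1.21-fold (ldha, 0.0784) and 1.11-fold higher (aldoaa, 0.225), none of them called. In wild type pgk1 was called under 5 of 11 alternatives other than leaving out an array, and eno1a and ldha each under 1. That the gap differs between genotypes was not shown, since the difference between the differences passed for none of these genes. The 142ab-/- call of ldha was lost under quantile normalization (adjusted p = 0.0701), median centring (0.0578) and without the filter on dim genes (0.0658), among other alternatives. That of aldoaa was lost in a fit of the 4 arrays compared alone (0.0638). The 142ab-/- calls rested on single arrays, with 2 of 10 left without 142ab-/- WKM replicate 2 (gapdh and hk1), 3 without 142ab-/- myelomonocyte replicate 1 and 7 without either of the other 2 arrays compared. The wild-type count was 2 without replicate 1 of either population.

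pgam1a stood apart from the other members in not passing in either genotype. Its difference was 0.22 ± 0.13 in 142ab-/- fish (95% interval -0.09 to 0.52) and 0.03 ± 0.13 in wild-type fish (-0.28 to 0.34), and the arrays of the populations overlapped in both. Its paralogue pgam1b, looked up after its values were seen, was called higher in myelomonocytes of both genotypes. The differences were 0.52 in 142ab-/- and 0.53 in wild-type fish (limma adjusted p = 0.00461 and 0.00588). In the same comparison 6 of 8 neutrophil markers were called higher in myelomonocytes of each genotype. The shares of all genes called between populations, given above, stand beside this and the following counts. Called lower there were 9 of 10 tested lymphocyte and 11 of 11 erythroid genes in 142ab-/- fish, and 10 of 10 and 8 of 11 in wild-type fish. Of 8 kidney tubule genes 7 were called higher and 1 lower in 142ab-/- fish (median 1.27), and 0 higher and 1 lower in wild-type fish (0.35). Of 7 monocyte and macrophage genes 1 was called higher and 5 lower in 142ab-/- fish, and 1 and 3 in wild-type fish. Of the 4 tested skeletal muscle genes 1 was called higher and 1 lower in 142ab-/- myelomonocytes, and 3 higher in wild-type ones. The short endothelial list had 2 of 4 genes higher in 142ab-/- and 3 of 4 in wild-type myelomonocytes, the thrombocyte list 2 of 3 lower in both genotypes, and the stem and progenitor list 1 of 5 higher, with 2 lower in 142ab-/- and 4 lower in wild-type fish. The part of cell makeup in the higher level of the glycolysis genes was not tested.

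**Figure D3:**
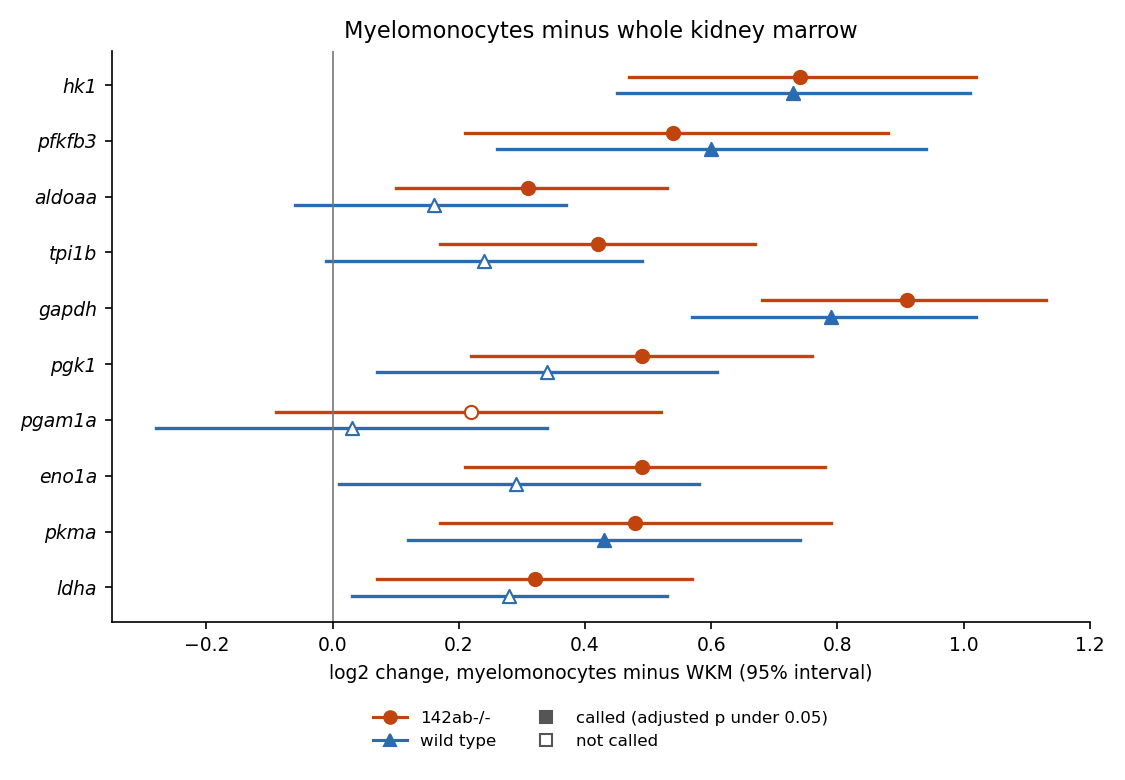
Log2 difference (x axis, myelomonocytes minus WKMs) of each member with its 95% interval from limma, circles for 142ab-/- and triangles for wild type, filled where called. All 20 points lie above 0, from 0.03 (pgam1a, wild type) to 0.91 (gapdh, 142ab-/-).

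The order of the 4 group means differed between genes. hk1, pfkfb3 and gapdh ran from 142ab-/- myelomonocytes through wild-type myelomonocytes and 142ab-/- WKMs to wild-type WKMs. The neighbouring groups overlapped for hk1 between the WKM genotypes and for pfkfb3 between wild-type myelomonocytes and 142ab-/- WKMs. aldoaa, tpi1b, pgk1 and ldha ran from wild-type to 142ab-/- myelomonocytes and then from wild-type to 142ab-/- WKMs, with the myelomonocyte genotypes overlapping for aldoaa, tpi1b and pgk1 and the WKM genotypes for ldha. For pgam1a and eno1a both wild-type groups stood above both knockout groups. For eno1a, as for gapdh, no neighbours overlapped. Separation of the genotypes was common, at 54.8% of all genes tested in myelomonocytes and 56.7% in WKMs. The share of all genes with every neighbour apart was not computed. pkma kept the 2 populations apart and overlapped between genotypes in each.

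For the 3 members whose group means spanned at least 1 log2 unit, the tested genes with the most similar profile were found by the root-mean-square difference over the 8 arrays after centring each gene on its own mean. For gapdh (span 1.08) these were stx3b, a syntaxin of membrane fusion, abcb9, a transporter of the ABC family, and fes, a tyrosine kinase gene, at 0.05, 0.05 and 0.06 log2 units. For pfkfb3 (span 1.02) they were gbp1, a guanylate-binding protein gene, lysmd4 and eeig1b, at 0.11, 0.11 and 0.12. For eno1a (span 1.03) they were pstpip1b, fam89a and def6c, at 0.08, 0.08 and 0.09. These values describe the 8 arrays and carry no test.

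The remaining glycolysis genes and the pathways that feed or drain them were read from the same fit. Among 22 other tested glycolysis genes (sugar transporters, isozymes and phosphofructokinase subunits), 2 were called higher and 4 lower in 142ab-/- myelomonocytes (median -0.09), and 1 higher and 0 lower in 142ab-/- WKMs (median -0.01). Against them stand 6.85% of all genes called higher and 5.51% lower in myelomonocytes, and 4.73% and 4.55% in WKMs. pfklb, a liver-type subunit of phosphofructokinase, rose in both. It had 8.20 and 8.09 in 142ab-/- myelomonocytes, against 6.88 and 6.93 in wild-type ones, a 2.36-fold rise (log2 1.24 ± 0.13, adjusted p = 0.00166) that held under every alternative tried. In WKMs it had 8.27 and 7.91 in 142ab-/- samples, against 7.61 and 7.45 in wild-type ones, a 1.47-fold rise (0.56 ± 0.13, adjusted p = 0.0391), which was lost without 142ab-/- WKM replicate 1, either wild-type WKM array or either wild-type myelomonocyte array (adjusted p up to 0.185), without the filter on dim genes (0.0523) and in a fit of the 4 WKM arrays alone (0.0697).

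pfkma, the muscle-type subunit, fell in myelomonocytes to 6.92 and 6.52 in 142ab-/- samples, against 7.41 and 7.63 in wild-type ones (-0.80 ± 0.20, adjusted p = 0.0374). In WKMs it had 8.88 and 9.41 in 142ab-/- samples, against 8.69 and 8.86 in wild-type ones, a difference of 0.37 ± 0.20 that was not called (adjusted p = 0.30). The difference between the 2 differences was -1.17 ± 0.28 and did not pass (adjusted p = 0.145). It was also the member of this list with the widest gap between populations, 5.36-fold lower in 142ab-/- myelomonocytes than in 142ab-/- WKMs (adjusted p = 0.000109) and 2.39-fold lower in wild type (0.00238). The erythroid list was also lower in myelomonocytes in both genotypes, with medians of -1.80 in 142ab-/- and -0.61 in wild-type fish, and its part in pfkma was not tested.

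Other called isozymes in myelomonocytes were aldoab, another aldolase A gene, which rose by 0.60 ± 0.14 (adjusted p = 0.0293), and gpib, a glucose phosphate isomerase, at -0.38 ± 0.10 (0.0447). To complete the count, slc2a3a, a glucose transporter, at -0.60 ± 0.16 (0.047) and ldhd, a D-lactate dehydrogenase, at -0.49 ± 0.13 (0.0496) were named after their values were seen. The calls of pfkma, aldoab, gpib, slc2a3a and ldhd each depended on single arrays. With 1 array left out, pfkma ran from -1 to -0.6, aldoab from 0.47 to 0.73 and gpib from -0.42 to -0.34. slc2a3a ran from -0.75 to -0.45 and ldhd from -0.52 to -0.45. Of the alternatives other than leaving out an array, gpib and slc2a3a were each called under 4 of 10, and ldhd under 5 of 11. The calls of gpib, slc2a3a and ldhd were lost without the filter on dim genes (adjusted p = 0.0698, 0.0618 and 0.0686), among other alternatives. gpib also lay near the dim level of 5.52, with means of 5.56 in knockout and 5.94 in wild-type myelomonocytes. The calls of gpib, slc2a3a and ldhd therefore carry little weight. The pfkma call was also lost with array weights (0.0542). Some paralogues of eno1a and pgam1a were also looked up after their values were seen. eno3, another enolase, differed by -0.19 ± 0.12 in myelomonocytes and -0.35 ± 0.12 in WKMs. In the same order eno2 differed by -0.26 ± 0.10 and -0.15 ± 0.10, and pgam1b by -0.20 ± 0.10 and -0.19 ± 0.10. None of them was called. How far probes of such paralogues cross-react was not tested.

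Between populations, 12 of the 22 were called higher and 3 lower in 142ab-/- myelomonocytes (median 0.38), and 11 higher and 3 lower in wild-type ones (median 0.30). Over all genes tested, 21.5% were called higher and 22.6% lower in 142ab-/- myelomonocytes, and 15.5% and 20.1% in wild-type ones. hk2, another hexokinase, was 1.72-fold higher in 142ab-/- and 1.76-fold higher in wild-type myelomonocytes (adjusted p = 0.00144 and 0.00178). pfkpb, a platelet-type phosphofructokinase subunit, was 1.80-fold higher in 142ab-/- and 1.63-fold higher in wild-type myelomonocytes (0.000533 and 0.00181). Phosphofructokinase subunits did not all lie on 1 side: pfklb was called lower in wild-type myelomonocytes than in wild-type WKMs (-0.63 ± 0.13, adjusted p = 0.00867) and differed by 0.05 ± 0.13 in 142ab-/- fish without a call (0.772), and pfkma was lower in both genotypes.

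The enzymes that set the amount of the phosphofructokinase activator include pfkfb3 and, outside the 10 members, 7 tested genes. Of these 2, pfkfb1 and pfkfb4a, were called higher in 142ab-/- myelomonocytes (median 0.27), where 6.85% of all genes tested were called higher. In WKMs 0 were called (median -0.03), against 4.73% of all genes higher and 4.55% lower. There limma gave the same 2 genes an unadjusted p under 0.05. Such p are common in WKMs, where pfkfb3 at an unadjusted limma p of 0.0114 ranked 1824 of 13774 genes. This count therefore carries little weight. pfkfb1 had 6.22 and 6.41 in 142ab-/- myelomonocytes and 5.52 and 5.22 in wild-type ones. Its wild-type means were under 5.52 in myelomonocytes (5.37) and in WKMs (5.48), so it passed the filter through the 142ab-/- arrays. Its place in both counts therefore carries little weight, and neither size nor adjusted p is given for its change. pfkfb4a rose by 0.54 ± 0.12 (adjusted p = 0.024), with 9.65 and 9.44 in 142ab-/- against 8.99 and 9.02 in wild-type samples, a call lost without either wild-type array or 142ab-/- replicate 1 (up to 0.108) and in a fit of those 4 arrays alone (0.0513).

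Pyruvate leaves glycolysis either as lactate or through the mitochondrial pyruvate dehydrogenase complex, which pyruvate dehydrogenase kinases switch off. Of 17 tested genes of lactate export and pyruvate entry, 2 rose and 1 fell in each population (medians 0.07 in myelomonocytes and -0.06 in WKMs). Over all genes tested, 6.85% were called higher and 5.51% lower in myelomonocytes, and 4.73% and 4.55% in WKMs. The 2 that rose were the kinase genes pdk3a and pdk4 in both. pdk3a had 12.31 and 11.99 in 142ab-/- myelomonocytes, against 11.08 and 11.20 in wild-type ones, a 2.01-fold rise (adjusted p = 0.00423). In WKMs it had 11.77 and 11.50 in 142ab-/- samples, against 10.77 and 10.70 in wild-type samples, a 1.87-fold rise (adjusted p = 0.0087). The knockout arrays lay above both wild-type groups throughout. Arrays of the genotypes do not overlap for 54.8% of all genes tested in myelomonocytes and 56.7% in WKMs, so such separation within a population is common. pdk4 was 2.47-fold higher in 142ab-/- myelomonocytes (10.13 and 10.15, against 8.60 and 9.06 in wild type, adjusted p = 0.0229) and 2.44-fold higher in 142ab-/- WKMs (9.93 and 9.73, against 8.07 and 9.02 in wild type, adjusted p = 0.0299), where the wild-type arrays were far apart.

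Another kinase gene went the other way: pdk1 fell in 142ab-/- myelomonocytes (9.72 and 9.66, against 10.25 and 10.33 in wild type, -0.60 ± 0.14, adjusted p = 0.0331), and differed by -0.48 ± 0.14 in WKMs without a call (0.0828). slc16a3a, a lactate exporter of the MCT4 type, fell in 142ab-/- WKMs (8.89 and 8.65, against 9.30 and 9.38 in wild type, -0.57 ± 0.11, adjusted p = 0.0174) and differed by -0.33 ± 0.11 in myelomonocytes (0.0886). The call of pdk3a in myelomonocytes held without any single array. Those of pdk3a in WKMs, pdk4 in both, pdk1 and slc16a3a each depended on single arrays (largest adjusted p with 1 left out 0.058, 0.133, 0.146 and 0.108), and that of pdk1 was lost with array weights (0.0549). Both copies of the exporter were higher in myelomonocytes than in WKMs, slc16a3b by 2.03-fold in 142ab-/- and 2.79-fold in wild-type fish (adjusted p = 0.00121 and 0.000385), and slc16a3a by 1.95-fold in 142ab-/- and 1.65-fold in wild-type fish (0.000342 and 0.00181).

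**Figure D4:**
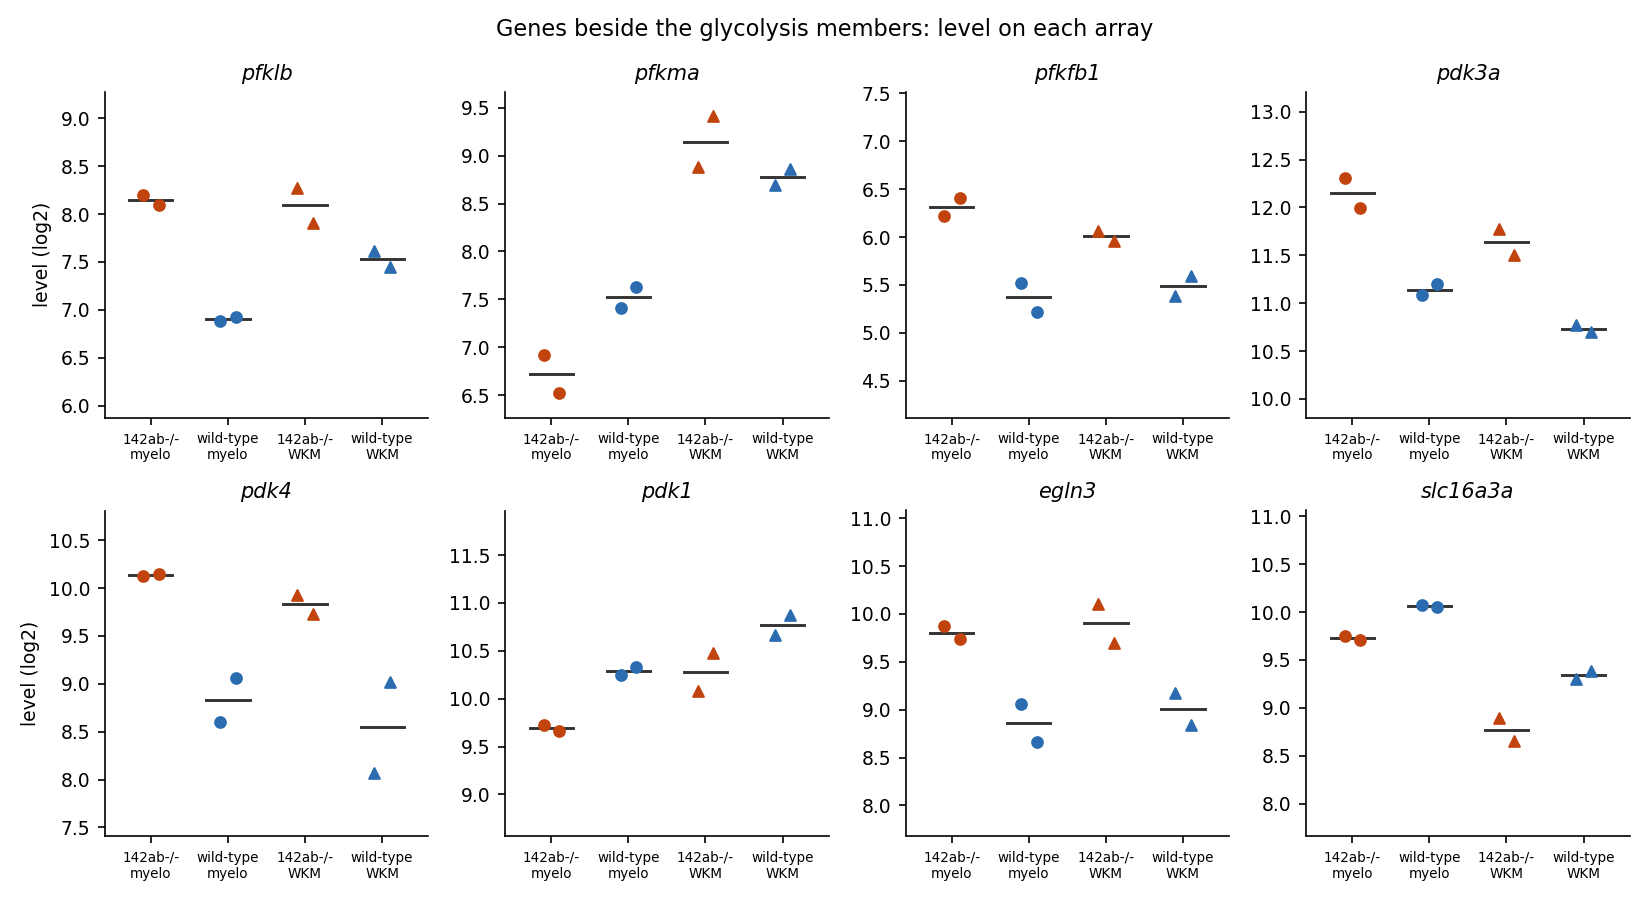
Level (log2, y axis) on each array of 8 genes that adjoin the members, in the same layout with every panel spanning 3.4 log2 units; bars are means of 2 arrays. pdk3a, pdk4 and egln3 lie higher in both 142ab-/- groups than in the wild-type group of the same population, and pfkma lies lower in both myelomonocyte groups.

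Glycolytic genes are known targets of the hypoxia-inducible factors, which prolyl hydroxylases of the egln family mark for breakdown through vhl. A list of 23 tested genes held genes of this regulation and others, among them the MYC genes myca and mych. Of the 23, 1 rose and 0 fell in 142ab-/- myelomonocytes (median 0.08), and 3 rose and 1 fell in 142ab-/- WKMs (median 0.02). The shares of all genes called higher and lower were 6.85% and 5.51% in myelomonocytes, and 4.73% and 4.55% in WKMs. The myelomonocyte count did not exceed that background. egln3 rose in both, with 9.87 and 9.74 in 142ab-/- against 9.06 and 8.66 in wild-type myelomonocytes (0.95 ± 0.19, adjusted p = 0.0162) and 10.10 and 9.70 in 142ab-/- against 9.17 and 8.84 in wild-type WKMs (0.90 ± 0.19, 0.0254). egln1a rose 3.63-fold in 142ab-/- WKMs, at 9.11 and 8.73 against 7.23 and 6.89 in wild-type WKMs (adjusted p = 0.00646), a call that held without any single array. In myelomonocytes its knockout arrays, at 8.23 and 7.37, were far apart, against 7.10 and 6.95 in wild type, and the difference of 0.78 ± 0.27 was not called (0.102). egln2 rose by 0.45 ± 0.10 (0.0282) and vhl fell by 0.65 on the log2 scale (adjusted p = 0.014) in WKMs. The calls of egln3 in both populations, egln2 and vhl also depended on single arrays (largest adjusted p 0.138).

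The pentose phosphate branch leaves glycolysis at its first sugar phosphate. Of all genes tested, 6.85% were called higher in myelomonocytes and 4.73% in WKMs. In this branch 2 of 6 tested genes were called higher and 0 lower in each population (medians 0.19 in myelomonocytes and 0.09 in WKMs). They were the same in both, tkta, a transketolase, at 0.52 ± 0.11 in myelomonocytes and 0.51 ± 0.11 in WKMs (adjusted p = 0.0229 and 0.0293), and rpia, a ribose phosphate isomerase, at 0.52 ± 0.11 and 0.60 ± 0.11 in the same order (0.0248 and 0.0177). All 4 calls depended on single arrays (largest adjusted p 0.167), and those of tkta and rpia in myelomonocytes were lost when the 4 arrays compared were fitted alone (0.0524 and 0.0687). Of 7 tested gluconeogenesis genes, pck2, the mitochondrial carboxykinase that makes phosphoenolpyruvate, rose in 142ab-/- myelomonocytes by 0.70 ± 0.16 (adjusted p = 0.0307; up to 0.153 without 1 array), and 0 were called in WKMs (limma, 1 at an unadjusted p under 0.05). The shares of all genes called higher, given for the pentose phosphate branch, also stand beside these counts. The gene at an unadjusted p under 0.05 in WKMs carries little weight, since such p are common there. The kidney tubule markers given above, some of which also rose in 142ab-/- myelomonocytes, come from a tissue that makes glucose. Their part in pck2 was not tested.

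**Figure D5:**
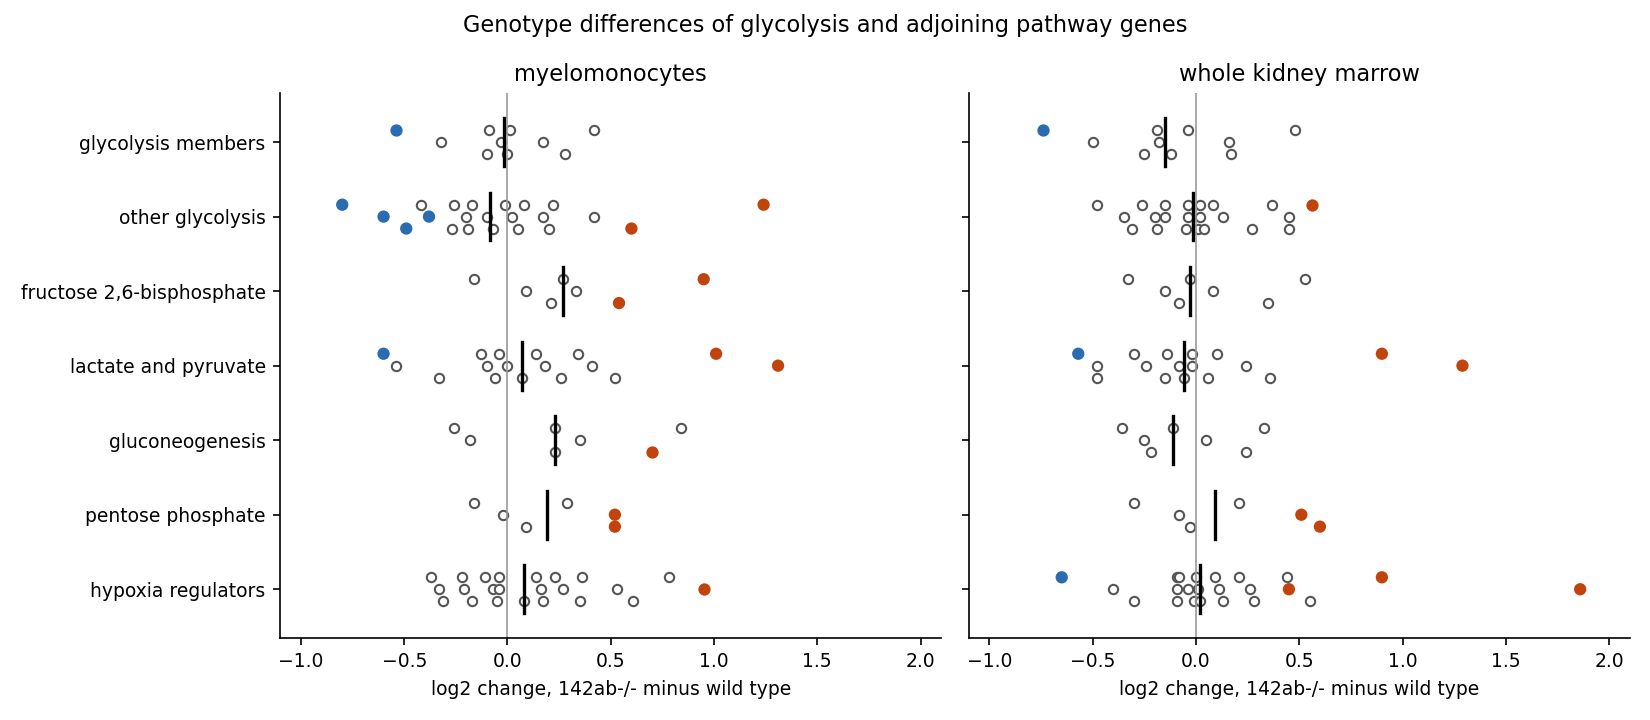
Log2 change (x axis, 142ab-/- minus wild type) of every tested gene of the members and of the 6 adjoining lists in myelomonocytes (left) and WKMs (right). Filled points were called (orange higher, blue lower), open points were not, and the black bar is the list's median, which runs from -0.15 to 0.27.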

How the data were processed

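RNA of sorted kidney cells was labelled as biotinylated cRNA from 200 ng total RNA and hybridised to 1-colour Affymetrix arrays, per the labels' protocols. The authors deposited log2 values per probe set, which were used as deposited. The sources used here do not give the background correction, summarisation or normalization; array batches are likewise unstated. The number of arrays, 8, limits the precision.

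Probe sets were named from the platform annotation: of 75212, 20806 had 1 symbol, 855 several and 53551 none. The brightest probe set stood for each of 19260 symbols, and 13774 genes with a mean of at least 5.52 (the 50th percentile) were tested. limma 3.58.1 in R 4.3.3 fitted a mean per group to all 8 arrays (4 residual and 4 prior degrees of freedom). The method was tried on simulated data with independent normal values, whose results are not given here. SE is limma's moderated standard error; SD is that of the 2 arrays.

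All 10 members are named in each comparison between genotypes or populations. Between genotypes, up to 4 called genes with the smallest p are named from each adjoining list, and exceptions are marked. Between populations only some called genes are named, and pfklb lies outside that rule. Population differences of the phosphofructokinase activator, gluconeogenesis, pentose phosphate and hypoxia lists are left out. The members and lists were chosen with earlier results of these data known. The labels call the samples biological replicates. Alternatives were quantile normalization, median centring, other dim filters, every probe set or their mean, the compared arrays alone, array weights, eBayes with trend and robust, a replicate block and leaving out each array.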

Additional observations from a re-analysis of the deposited data

How the results depend on the processing

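Of the 10 members, the count called between genotypes in myelomonocytes was 1 and ranged from 0 to 1 when each array was left out, with 0 when only the 4 arrays compared were fitted. In WKMs it was 1 and ranged from 0 to 1; it was 2 with quantile normalization, the dim filter at the 75th percentile, array weights or the replicate block, each time with pgam1a added (adjusted p = 0.0485, 0.0389, 0.0396 and 0.0295), and 3 with eBayes trend and robust, with pgam1a (0.0234) and pfkfb3 (0.0409). Between populations the count was 9 in 142ab-/- fish and ranged from 2 to 8, and 4 in wild type and ranged from 2 to 4. Those ranges are for leaving out 1 array. Under the other alternatives the 142ab-/- count ran from 6 (the 4 arrays compared alone) to 9. The wild-type count ran from 3 (no filter on dim genes) to 6 (replicate block). For the difference between the differences the count stayed 0. Over all genes the counts without 1 array ranged from 719 to 1483 (1703 with all) between genotypes in myelomonocytes, with 1108 from the 4 arrays compared, from 361 to 1392 (1278) in WKMs, from 4088 to 5750 (6076) and 2950 to 5293 (4900) between populations in 142ab-/- and wild-type fish, and from 1 to 25 (38) for the difference between the differences. That last count was 23 with quantile normalization, 112 with eBayes trend and robust and 77 with the replicate block. Whether replicate numbers pair the samples is not settled by 2 pairs a comparison and the labels tie no number to a shared batch: deviations correlated at 0.405 between the populations in wild type and 0.267 in 142ab-/- fish, and at 0.091 between the genotypes in myelomonocytes and 0 in WKMs. With the block, pgk1 (0.0448) and eno1a (0.0391) were also called between populations in wild type.

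No called value changed direction. Uncalled values that did were aldoaa (0.04) and tpi1b (0.03) between genotypes in myelomonocytes with quantile normalization, tpi1b (0) with median centring, and the difference between the differences of hk1 with quantile normalization (-0.03) and median centring (-0.02). Leaving out 1 array gave, between genotypes in myelomonocytes, -0.09 to 0.09 for tpi1b, -0.08 to 0.01 for aldoaa, -0.20 to 0 for pgk1 and -0.07 to 0.09 for pkma. It gave -0.23 to 0.15 for pkma in WKMs, -0.06 to 0.12 for pgam1a between populations in wild type, and, for the difference between the differences, -0.12 to 0.14 for hk1, -0.27 to 0.16 for pfkfb3, -0.08 to 0.16 for ldha and -0.14 to 0.24 for pkma. The cause of these changes was not tested.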
